A study of Homo sapiens with 31 samples.

Results

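ATF4 and the genes of the amino acid stress response were examined in NALM-6, an established B-cell precursor acute lymphoblastic leukemia (ALL) cell line, with and without knockdown (KD) of XIAP, an inhibitor of caspases. The group was a list of 32 gene symbols, of which 31 had a row among the 30667 Ensembl identifiers of the deposited count table, and ALDH1L2 was not analysed here. Cells had been transduced with 1 of 4 lentiviral constructs, in which the EF1α or the SFFV promoter drove sh-XIAP or sh-CTRL, an shRNA against eGFP, from a miR30 cassette, and were sampled at day 4, 10 or 13 after transduction. All samples were 1 cell line, and all of them carried a lentiviral vector.

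EF1α/sh-CTRL comprised 3 samples at each day. EF1α/sh-XIAP, the moderate KD in the terms of the study, comprised 2 samples at day 4, 2 at day 10 and 3 at day 13. SFFV/sh-CTRL comprised 3 samples at day 4, 2 at day 10 and 2 at day 13, and SFFV/sh-XIAP, the strong KD, comprised 2, 3 and 3. The sample labels place the cells in vitro, whereas the design text of the series places them in murine bone marrow, and nothing states whether replicates were separate cultures. All p-values therefore measure the spread between these 31 samples. Levels are given as CPM, the unique molecular identifiers (UMIs) of a gene per 1000000 UMIs of its sample, and are not divided by gene length, since prime-seq reads the 3′ end of each transcript.

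Total UMIs per sample ranged from 312852 to 1153668. All 12 B-cell precursor markers had UMIs in every sample, with a summed level of 4832 to 5564 CPM, whereas the summed T-cell markers stayed at 2.07 to 22.8 CPM (4 of 7 had a row), the myeloid markers at 0 to 25.6 CPM (6 of 7) and the erythroid markers at 0 to 5.29 CPM (3 of 4). Of the 3 stromal markers with a row VIM had 711 CPM on average, and the other two summed to at most 6.91 CPM. Between 1.76% and 2.12% of the UMIs came from mitochondrial transcripts. XIAP, the targeted transcript, was sparsely counted, with 2 to 14 UMIs in each sample of days 10 and 13. Under the SFFV promoter its level was 8.86 ± 3.06 CPM (SD, n = 6) in KD and 10.2 ± 4.72 CPM (n = 4) in control samples, and under EF1α it was 9.62 ± 1.45 CPM (n = 5) and 10.8 ± 4.67 CPM (n = 6). The fitted log2 fold changes of XIAP were −0.26 (95% interval −1.06 to 0.53; adjusted p = 0.975 in limma-voom) and −0.17 (−0.91 to 0.57; adjusted p = 0.994), so that the transcript counts alone do not show the KD, and the intervals are wide. At day 4 the fitted XIAP values lay on the other side of 0, at 0.21 for strong KD (−0.83 to 1.24; adjusted p = 0.996) and 0.15 for moderate KD (−0.71 to 1.01; adjusted p = 0.997). The paper reports the KD in NALM-6 as XIAP protein by Western blot, moderate under EF1α and strong under SFFV. Protein is a different measure from the transcript counts given here.

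ATF4 is a basic leucine zipper transcription factor of the integrated stress response. When amino acids run short or misfolded proteins accumulate, sensor kinases phosphorylate the initiation factor eIF2, general translation drops, and ATF4 mRNA is translated through upstream open reading frames, so that ATF4 activity is set largely by translation and is read from its target transcripts rather than from its own mRNA. Its targets make and import amino acids (ASNS, PSAT1, PHGDH, SLC7A11), feed one-carbon metabolism (SHMT2, MTHFD2), restrain mTORC1 (DDIT4, SESN2), and close a feedback loop through DDIT3 (CHOP), TRIB3 and PPP1R15A. Leukemic lymphoblasts are known for their dependence on outside asparagine, which asparaginase treatment exploits.

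Many of these genes are reached through a composite C/EBP-ATF response element with the core TGATGNAA. Members with an exact match within 250 bases before a listed start are shown here. Elements farther upstream, or downstream of a start, were not searched. Of the 32 listed members, 25 had a promoter in the RefSeq table (GRCh38.p14), and 8 of these held the core on either strand within 250 bases before a listed start, a share of 32%, beside 3.89% of the 27305 genes in the table. The windows of 30 bases around the cores are given 5′ to 3′ on the strand of the gene, with the core, or its reverse complement in CHAC1 and HERPUD1, in capitals.
ASNS, asparagine synthetase, chr7:97872458-97872487, minus strand: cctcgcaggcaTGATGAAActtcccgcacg
CHAC1, glutathione-degrading enzyme, chr15:40953251-40953280, plus strand: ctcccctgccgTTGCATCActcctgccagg
ATF3, transcription factor, chr1:212565205-212565234, plus strand: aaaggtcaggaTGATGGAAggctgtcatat
CEBPG, dimerization partner of ATF4, chr19:33374060-33374089, plus strand: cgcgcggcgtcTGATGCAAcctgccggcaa
JDP2, AP-1 repressor, chr14:75427992-75428021, plus strand: tatatagccggggcTGATGCAAcccgtccc
HERPUD1, component of endoplasmic reticulum (ER)-associated degradation, chr16:56931955-56931984, plus strand: gacgcggcgggTTGCATCAgcccgtgccca
BCAT1, branched-chain aminotransferase, chr12:24949131-24949160, minus strand: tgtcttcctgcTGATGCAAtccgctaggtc
SLC1A5, glutamine transporter, chr19:46784893-46784922, minus strand: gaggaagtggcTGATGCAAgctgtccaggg
The cores began 16 (JDP2) to 209 (CHAC1) bases before the start, and CHAC1 and HERPUD1 had 1 listed start each. The other six had 2 to 5 listed starts, with the core before 1 of them. A match is a description of letters and not of binding. NUPR1, EIF4EBP1, PSPH, SHMT2, ALDH1L2, PYCR1 and SLC7A11 had no entry in the table.

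Most members were well measured. For those of at least 30 CPM, the highest mean of a construct and day exceeded the lowest by a median of 1.27-fold. The largest such ratio was 1.92-fold (HERPUD1), and sparse members spread wider, as CHAC1 with 6.22-fold. Over the 31 samples, 22 of the 31 members averaged at least 30 CPM, and the other nine averaged under 20 CPM. Of the transcription factors, ATF4 itself (chr22:39519695-39522685 in GENCODE 29) averaged 594 CPM, ATF5, another factor whose translation responds to eIF2 phosphorylation, 328 CPM, CEBPG 93.5 CPM and DDIT3, the pro-apoptotic factor CHOP, 42.1 CPM. JDP2 (17.4 CPM), CEBPB (10.8 CPM) and ATF3 (10.1 CPM) were sparse, and NUPR1, a stress-induced chromatin protein, had 15 UMIs in all and 0 in 21 samples. The effectors ranged from EIF4EBP1, a repressor of cap-dependent translation, at 290 CPM and DDIT4 at 201 CPM, through VLDLR (119 CPM), TRIB3 (92.0 CPM), HERPUD1 (38.3 CPM) and SESN2 (37.3 CPM), down to PPP1R15A, the phosphatase subunit that restores eIF2 (6.30 CPM), and CHAC1 (3.45 CPM).

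The enzymes of serine, one-carbon and branched-chain metabolism were abundant, whereas asparagine synthetase was almost uncounted. MTHFD2, a mitochondrial folate enzyme, averaged 413 CPM, BCAT1 292 CPM, PHGDH, the first enzyme of serine synthesis, 231 CPM, SHMT2 227 CPM and PSAT1, the next serine enzyme, 190 CPM. The proline synthesis enzymes ALDH18A1 and PYCR1 averaged 84.9 and 63.8 CPM, and PSPH, the last serine enzyme, 17.8 CPM. ASNS (chr7:97852118-97872542) had 5 UMIs in all, at most 1 in any sample and 0 in 26 of the 31 samples. Its pseudogenes ASNSP1 and ASNSP4 held 71 and 20 UMIs, and how the counting split near-identical reads between such copies is not given in the sources used here, so that the level of ASNS is uncertain. The same holds in part for ATF4, beside whose 12267 UMIs 4 pseudogenes held 3908. Of the transporters, SLC38A2, a small neutral amino acid carrier, averaged 284 CPM, and the light and heavy chains of the leucine transporter, SLC7A5 and SLC3A2, 143 and 126 CPM. XPOT, the tRNA exporter, averaged 129 CPM, SLC1A5 119 CPM, and SLC7A11, the cystine transporter that feeds glutathione synthesis, 9.61 CPM.

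The level of ATF4 mRNA did not separate the constructs. At days 10 and 13 its level was 569 to 607 CPM with SFFV/sh-CTRL (median 581, n = 4) and 553 to 622 CPM with SFFV/sh-XIAP (median 608, n = 6). With EF1α/sh-CTRL it was 570 to 643 CPM (median 604, n = 6), and with EF1α/sh-XIAP it was 526.5, 574, 610, 635 and 671 CPM. The 4 ranges overlap, and the lowest and the highest sample of all 31 both belong to EF1α/sh-XIAP. At day 4 the samples were at 539, 595 and 601 CPM with EF1α/sh-CTRL, 542 and 614 CPM with EF1α/sh-XIAP, 542, 560 and 624 CPM with SFFV/sh-CTRL, and 594 and 607 CPM with SFFV/sh-XIAP, which again overlap. The fitted fold changes at days 10 and 13 were 1.03 for strong KD (95% interval 0.959 to 1.11; adjusted p = 0.954) and 1.02 for moderate KD (0.949 to 1.09; adjusted p = 0.994). DDIT3 gave 1.04-fold (0.770 to 1.41) and 0.999-fold (0.756 to 1.32), a wider range set by its lower count. In bulk RNA, a change in the number of cells expressing a gene and a change of its RNA per cell cannot be told apart.

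Strong KD was tested as SFFV/sh-XIAP against SFFV/sh-CTRL at days 10 and 13, with day as a term. No member passed the adjusted p of at most 0.25 that the study used. limma-voom called 0 of the 30 members tested, beside 14 of 17683 genes (0.0792%), and the edgeR quasi-likelihood test and DESeq2 called 0 members as well, with 49 and 0 genes called in all. At an unadjusted p under 0.05 there was 1 member (3.33%), beside 5.59% of all genes tested. The median log2 fold change was 0.024 for the members and −0.018 for all genes tested, with 16 members above 0 and 14 below. The bound on an effect was narrow for most of them, since the 95% interval stayed within a 1.5-fold change in either direction for 20 of the 30 members (28.8% of all genes tested). None of the 22 members over 30 CPM had values that did not overlap between the groups, beside 1.53% of the 6211 genes at that level.

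By role, the 8 transcription factors had a median log2 fold change of 0.025 with strong KD, the 8 effectors −0.16, the 8 enzymes tested 0.01 and the 6 genes of amino acid transport and tRNA export 0.06, with 0 called in each. The member with the smallest p in the upward direction was PHGDH (chr1:119648411-119744226). Its level was 174, 182, 223 and 250 CPM with SFFV/sh-CTRL and 220 to 272 CPM with SFFV/sh-XIAP (median 242, n = 6). The ranges overlap, with 2 of the 4 control samples inside the KD range. The log2 fold change was 0.22 ± 0.10 (SE; adjusted p = 0.847), and with log2 total UMIs as a covariate it was 0.07. Total UMIs were higher with SFFV/sh-XIAP (median 708867) than with SFFV/sh-CTRL (median 464457), and the correlation of the level of PHGDH with log2 total UMIs within groups was 0.56 (n = 31). The part of depth in the difference was not tested beyond that covariate. The value of PHGDH was 0.34 without SFFV/sh-CTRL day 13 replicate 2. In the downward direction the smallest p was that of TRIB3, a pseudokinase that dampens ATF4 and AKT signalling, with a log2 fold change of −0.25 ± 0.15 (adjusted p = 0.922). It was −0.006 in thinned counts and −0.136 without SFFV/sh-CTRL day 10 replicate 1. TRIB3 was at 82.6 to 110 CPM in 4 SFFV/sh-CTRL samples and at 72.3 to 99.9 CPM in 6 SFFV/sh-XIAP samples, again overlapping.

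The moderate KD, tested within the EF1α promoter, gave the same picture. limma-voom, edgeR and DESeq2 each called 0 of 30 members, while limma-voom called 3 of 17683 genes (0.017%). At an unadjusted p under 0.05 there were 2 members, SHMT2 and PSPH, a share of 6.67% beside 4.63% of all genes tested. The median was 0.01 for both the members and all genes tested, and the interval stayed within 1.5-fold for 22 members. No member over 30 CPM had groups that did not overlap, beside 0.419% of genes at that level. SHMT2 was at 224 to 267 CPM in the 5 EF1α/sh-XIAP samples (median 245) and at 163 to 245 CPM in the 6 EF1α/sh-CTRL samples (median 215), with a log2 fold change of 0.20 ± 0.10 (adjusted p = 0.992). PSPH was at 12.4 to 20.7 CPM and 16.3 to 28.2 CPM, with a log2 fold change of −0.54 ± 0.26 (adjusted p = 0.992). The value of PSPH was −0.073 in thinned counts and −0.35 without EF1α/sh-XIAP day 13 replicate 3. These enzymes act in neighbouring steps, the making of serine and its conversion to glycine.

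**Figure D1:**
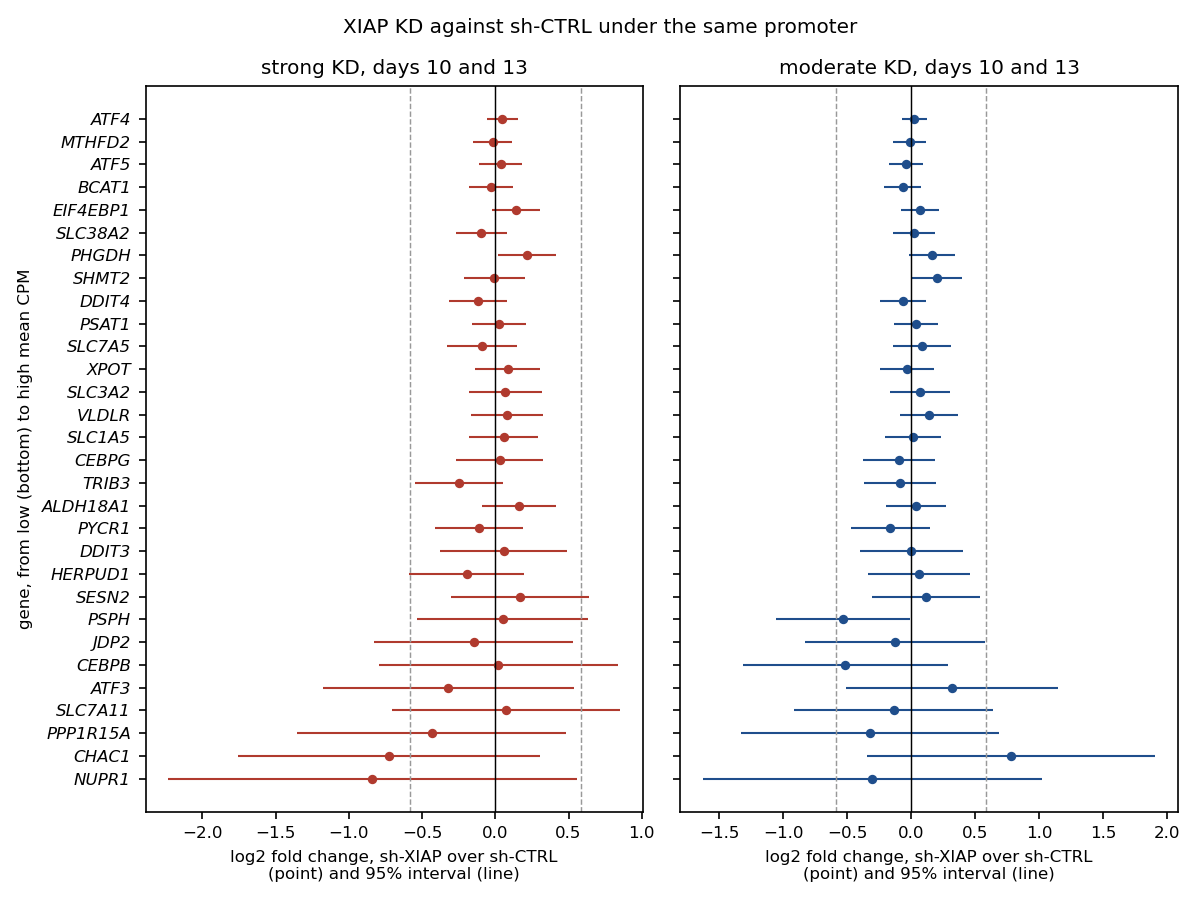
log2 fold change (point) with 95% interval (line) of each of the 30 members tested, for strong KD (left) and moderate KD (right) at days 10 and 13, sorted by mean level. Dashed lines mark a 1.5-fold change, which 20 intervals on the left and 22 on the right do not reach, and the intervals widen towards the sparse members at the bottom.

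When SFFV/sh-XIAP was set against the mean of the 3 other constructs, which uses all 21 samples of days 10 and 13 and shares SFFV/sh-CTRL with the comparison above, 0 of 30 members were called by limma-voom, edgeR or DESeq2, although this comparison called 148 of 17683 genes (0.837%). Promoter and KD are mixed in this comparison, since the other constructs include both EF1α vectors. DESeq2 gave no adjusted p for 8 members. At an unadjusted p under 0.05 there were 2 members (6.67%), beside 6.46% of all genes tested, a share near the background. DDIT4 had a log2 difference of −0.18 ± 0.07 (adjusted p = 0.563) and TRIB3 of −0.22 (95% interval −0.44 to −0.01; adjusted p = 0.750). DDIT4 was at 170 to 227 CPM with SFFV/sh-XIAP (median 183, n = 6), 199 to 231 CPM with EF1α/sh-CTRL (median 222, n = 6), 177 to 259 CPM with EF1α/sh-XIAP (median 203, n = 5) and 177 to 219 CPM with SFFV/sh-CTRL (median 199, n = 4). The median was lowest with SFFV/sh-XIAP, and its range overlaps each of the others. In the upward direction PYCR1 had the smallest p, with 0.15 ± 0.11 (adjusted p = 0.896).

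No member passed the test of the difference between the 2 KD effects, which called 0 of 30 members by limma-voom, edgeR and DESeq2, and 0 at an unadjusted p under 0.05, beside 0.00566% and 5.06% of 17683 genes. The members with the smallest p were PSPH, with a difference of 0.59 (95% interval −0.20 to 1.37; adjusted p = 0.964), and CHAC1, with −1.51 (−3.03 to 0.02; adjusted p = 0.964).

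The promoters alone, compared as SFFV/sh-CTRL against EF1α/sh-CTRL, called no member. All 3 tools called 0 of 30 members, beside 0.00566% of genes in limma-voom, and 1 member had an unadjusted p under 0.05, beside 5.15% of genes. No member over 30 CPM was without overlap, beside 1.08% of genes at that level. The 1 member was CHAC1 (chr15:40952962-40956519), whose product degrades glutathione and whose transcript is a sensitive reporter of ATF4 and CHOP. It was counted 0, 0, 1, 1, 1 and 1 times in the 6 EF1α/sh-CTRL samples and 1, 2, 3 and 4 times in the 4 SFFV/sh-CTRL samples of days 10 and 13, so that no CPM value of the one group reached those of the other. Pooled, this was 4 UMIs (1.13 CPM) against 10 UMIs (5.55 CPM), a ratio of 4.91 with an exact 95% interval of 1.42 to 21.4 that covers counting error only. The share of genes without overlap at so low a level was not computed. CHAC1 was picked as the smallest p of the 30 members, and the interval does not allow for that choice. The fitted log2 fold change was 1.82 (adjusted p = 0.923), a size that depends on the prior count at such low counts. CHAC1 had 16 UMIs (3.56 CPM) over the 6 SFFV/sh-XIAP samples and 7 UMIs (2.47 CPM) over the 5 EF1α/sh-XIAP samples. At day 4 the promoters' control samples held 7 UMIs with SFFV/sh-CTRL (3.21 CPM) and 9 with EF1α/sh-CTRL (3.59 CPM). ATF5 had the smallest p in the other direction, with a log2 fold change of −0.13 ± 0.07 (adjusted p = 0.923).

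At day 4 the KD samples were compared apart, with 2 KD and 3 control samples under each promoter. The XIAP transcript was at 8.64 CPM (13 UMIs in all) with SFFV/sh-XIAP and 7.35 CPM (16 UMIs) with SFFV/sh-CTRL. It was at 10.96 CPM (18 UMIs) with EF1α/sh-XIAP and 11.20 CPM (25 UMIs) with EF1α/sh-CTRL. Such counts are too low to show a KD or its absence. For strong KD all 3 tools called 0 of 29 members, beside 2 of 18336 genes (0.0109%) in limma-voom, and 1 member had an unadjusted p under 0.05, beside 4.73% of genes. That member was PSAT1, at 208, 210 and 213 CPM with SFFV/sh-CTRL and 174 and 181 CPM with SFFV/sh-XIAP, with a log2 fold change of −0.25 ± 0.12 (adjusted p = 0.979). In the upward direction PSPH had the smallest p, with 0.59 (95% interval −0.15 to 1.33; adjusted p = 0.979), and −0.304 in thinned counts. The samples of the groups did not overlap for PSAT1 and for 7 other members over 30 CPM, 6 of the 8 being lower with KD, where 19.8% of the 6211 genes at this level did not overlap in groups of this size. For moderate KD 0 of 29 members were called by any of the tools, beside 0.0491% of genes, and 0 had an unadjusted p under 0.05, beside 4.5% of genes. Here 5 members did not overlap, 2 lower and 3 higher with KD, beside 19.3% of genes. PSAT1 was among them with the opposite sign (log2 fold change 0.20, adjusted p = 0.976), since the EF1α/sh-CTRL samples lay at 156, 167 and 179 CPM. The smallest p-values belonged to XPOT (0.27, 95% interval −0.00 to 0.54) and ALDH18A1 (−0.35, −0.71 to 0.01), both with an adjusted p of 0.976. XPOT was at 0.007 in thinned counts, and ALDH18A1 at −0.191 without EF1α/sh-CTRL day 4 replicate 1. Tested against each other, the day 4 and later effects of strong KD differed for 0 of 29 members by all 3 tools, beside 0.0226% of 17676 genes, with 1 member at an unadjusted p under 0.05, beside 5.2% of genes. It was again PSAT1, whose later effect exceeded that of day 4 by 0.29 ± 0.13 (adjusted p = 0.935). In the other direction CHAC1 had the smallest p, with −1.42 (95% interval −3.18 to 0.34; adjusted p = 0.951), and −0.09 in thinned counts.

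The time after transduction was compared over all 31 samples, as the mean over the 4 constructs. None of these comparisons called a member in any of the 3 tools. Day 13 against day 4 had 2 of 29 members at an unadjusted p under 0.05, beside 6.91% of 17676 genes, and 0.43% of genes were called. DDIT4 gave 0.13 ± 0.06 (adjusted p = 0.675) and PYCR1 0.21 ± 0.10 (adjusted p = 0.699), and SLC3A2 had the smallest p in the other direction (−0.13 ± 0.07, adjusted p = 0.800). DESeq2 gave no adjusted p for 12 members. Day 10 against day 4 had 1 member, SLC1A5, beside 6.61% of genes, with 0.294% of genes called. Day 13 against day 10 had 2 members, SLC1A5 and PSAT1, beside 5.36% of genes, with 0 genes (0%) called by limma-voom, 2 by edgeR and 0 by DESeq2. In the direction opposite to SLC1A5 the smallest p-values were those of ALDH18A1 from day 4 to day 10 (0.10 ± 0.08, adjusted p = 0.876) and HERPUD1 from day 10 to day 13 (−0.26 ± 0.14, adjusted p = 0.944).

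SLC1A5 (chr19:46774883-46788594), the main importer of glutamine, was the member with the smallest p in both of these comparisons and is shown by sample for that reason. At day 4 it was at 104, 107 and 119 CPM with EF1α/sh-CTRL, 119 and 121 CPM with EF1α/sh-XIAP, 124, 135 and 147 CPM with SFFV/sh-CTRL, and 116 and 116 CPM with SFFV/sh-XIAP. At day 10 it was at 96.8, 118 and 126 CPM, 94.5 and 98.4 CPM, 99.9 and 101 CPM, and 105, 109 and 126 CPM with the same constructs in that order. At day 13 it was at 116, 118 and 141 CPM, 130, 134 and 139 CPM, 122 and 125.3 CPM, and 122, 126 and 130 CPM. The mean was thus lower at day 10 than at day 13 with each of the 4 constructs, and the samples of these days did not overlap with EF1α/sh-XIAP and SFFV/sh-CTRL but did with the other two. The share of all genes without overlap between these days was not computed. In groups this small a lack of overlap is common, as in 19.8% of 6211 genes for strong KD at day 4. From day 4 to day 10 the mean was lower with 3 of the 4 constructs, and with EF1α/sh-CTRL it was not. The log2 fold change was −0.21 ± 0.08 from day 4 to day 10 (adjusted p = 0.528) and 0.30 ± 0.08 from day 10 to day 13 (95% interval 0.14 to 0.46; adjusted p = 0.699), which does not pass over all genes tested. With log2 total UMIs as a covariate the second was 0.32 (adjusted p = 0.0566) and passed the threshold, in a fit that called 81 genes. The part of depth in the values of SLC1A5 was not tested beyond that covariate. With KD the level of SLC1A5 was 1.04-fold (95% interval 0.885 to 1.22) under SFFV and 1.01-fold (0.870 to 1.17) under EF1α.

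**Figure D2:**
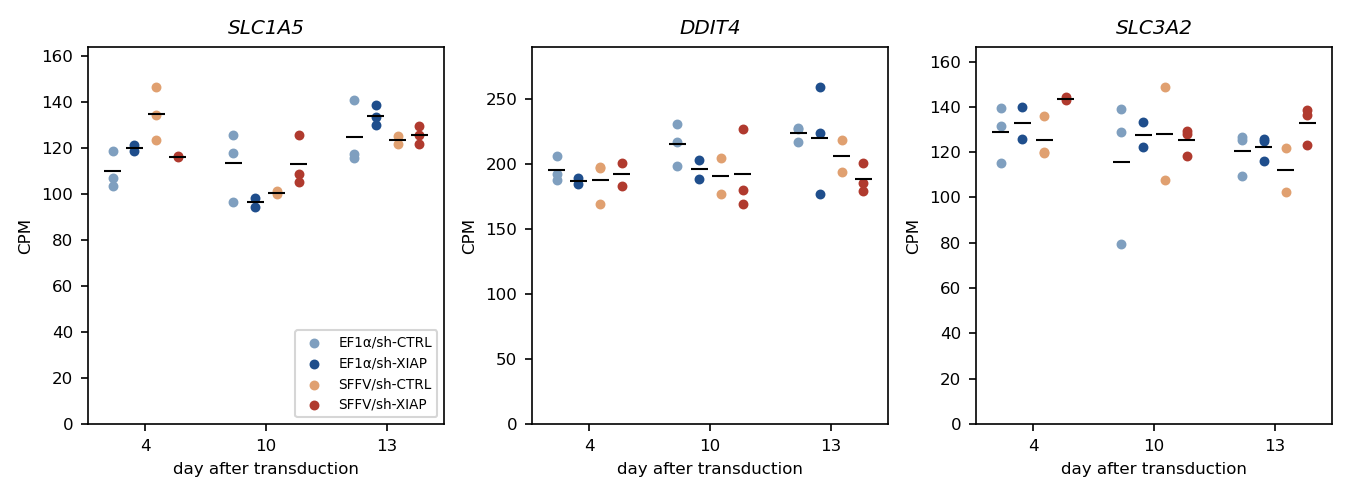
CPM of SLC1A5, DDIT4 and SLC3A2 by day after transduction, with 1 point per sample, colours for the 4 constructs and a bar at the mean of each group of 2 or 3 samples. SLC1A5 lies between 94.5 and 126 CPM at day 10, and the samples of the 3 days overlap for all of these genes.

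As a summary of the pathway, the mean log2 CPM over the 29 members kept in the fit of all samples was taken per sample, as a description without a test. At days 10 and 13 it was 6.31 ± 0.07 (SD, n = 6) with EF1α/sh-CTRL, 6.30 ± 0.02 (n = 5) with EF1α/sh-XIAP, 6.35 ± 0.05 (n = 4) with SFFV/sh-CTRL and 6.39 ± 0.02 (n = 6) with SFFV/sh-XIAP. The lowest of the 6 SFFV/sh-XIAP values, 6.35, lay below the highest of the SFFV/sh-CTRL values, 6.40, and both were day 10 samples. At day 13 the SFFV/sh-XIAP samples were at 6.405 to 6.412, above all samples of the other constructs, of which the highest was 6.377 (EF1α/sh-CTRL). That group was singled out after its values were seen. Log2 total UMIs was then allowed for by a fit over all 31 samples without construct. The means became 6.32, 6.31, 6.38 and 6.38 in the same order. Total UMIs were higher with SFFV/sh-XIAP (median 708867) than with SFFV/sh-CTRL (median 464457). Depth and strong KD therefore cannot be told apart in these values. By day the mean was 6.34 ± 0.09 (n = 10), 6.33 ± 0.07 (n = 10) and 6.35 ± 0.05 (n = 11) at days 4, 10 and 13. The replicate SD of this mean within groups was 0.06. Over the 31 samples the mean went with log2 total UMIs with r = 0.40 and rho = 0.37, and with r = 0.45 without the 2 totals farthest from the median, and the lowest values belonged to 2 EF1α/sh-CTRL samples, at 6.13 (day 4, 372930 total UMIs) and 6.17 (day 10, 441383 total UMIs). Summed over all 31 members, the pathway took 4238 ± 107 CPM with EF1α/sh-CTRL, 4263 ± 104 CPM with EF1α/sh-XIAP, 4172 ± 158 CPM with SFFV/sh-CTRL and 4251 ± 91.0 CPM with SFFV/sh-XIAP, which differ by less than the spread between replicates.

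The members also varied little between replicates of a group. For the 22 members over 30 CPM the SD between replicates, pooled over the 12 groups with 19 residual degrees of freedom, was 0.588 to 1.41 times the SD that counting UMIs alone would give, with a median of 1.06, beside 1.04 for the 6211 genes at that level. The coefficient of variation ran from 6.04% (ATF4) to 23.5% (SESN2), with a median of 9.76%. The precision of these levels was therefore set mainly by the number of UMIs. The highest of the 12 group means exceeded the lowest by 1.08-fold (MTHFD2) to 1.92-fold (HERPUD1), with a median of 1.27-fold, in groups of 2 or 3 samples. SLC7A5 and SHMT2 had the highest ratios to counting error, 1.41 and 1.38, and the residuals of SHMT2, ATF4 and PHGDH correlated with log2 total UMIs at r = 0.72, 0.58 and 0.56.

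Within groups, the correlations between members were close to those between all genes at their level. Over the 231 pairs of the 22 members over 30 CPM, the residuals of log2 CPM from the group means had a median correlation of 0.06, beside 0.03 over all pairs of genes at that level, and 6 pairs (2.597%) exceeded 0.5, beside 2.23% of all pairs. The points share library, depth and normalization. The replicate SD of these members was at a median of 1.06 times counting error, so the residuals were mostly counting noise. Low correlations therefore cannot tell whether the members move together. The highest value was that of PSAT1 with SLC3A2, 0.74, and 0.73 once log2 total UMIs was removed. SLC7A5 gave 0.57 with PSAT1, and 0.56 with SLC3A2, the heavy chain with which it forms the leucine transporter. These 3 genes were named because their values stood out. ATF4 mRNA itself had correlations between −0.32 (DDIT4) and 0.38 (SHMT2) with the other members.

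Other genes of the pathway did not pass the test in these comparisons either. None of the 16 upstream sensors and eIF2 subunits tested, which include the eIF2 kinases, was called with strong KD (median log2 fold change −0.07) or moderate KD (0.04), and 0 of these had an unadjusted p under 0.05 in either. None of the 13 aminoacyl-tRNA synthetases that ATF4 regulates (0.02 and −0.06), the 7 synthetases less tied to it (0.01 and −0.02) or the 23 further targets tested (0.05 and 0.04) was called with strong or moderate KD. These counts were 0 by limma-voom, edgeR and DESeq2. At an unadjusted p under 0.05, strong and moderate KD had 0 and 2 of the synthetases tied to ATF4, 0 and 0 of the others, and 1 and 0 of the further targets. Of the 20 genes of the XBP1 and ATF6 arms of the unfolded protein response, which run in parallel to ATF4 and raise the folding capacity of the ER, 0 were called with strong KD against SFFV/sh-CTRL by any of the tools (4 at an unadjusted p under 0.05, beside 5.59% of all genes tested), and with moderate KD 0 were called by any of the tools and 0 had an unadjusted p under 0.05. The comparison with the mean of the other constructs mixes promoter and KD, since these include both EF1α vectors. For the promoters alone 0 of the 20 were called by any of the tools. There 3 had an unadjusted p under 0.05, beside 5.15% of all genes tested, and the median log2 fold change was 0.060, beside 0.016. Against the mean of the other constructs 4 of the 20 rose and 0 fell, beside 0.837% of all genes called, and the members' count there was 0 of 30. They were the ER chaperones CALR (log2 difference 0.21 ± 0.04, adjusted p = 0.00145) and HSP90B1 (0.22 ± 0.04, adjusted p = 0.0046) and, named after their values were seen, HSPA5 (0.24 ± 0.05, adjusted p = 0.00885) and MANF (0.31 ± 0.09, adjusted p = 0.135). HSPA5 was at 374 to 416 CPM with SFFV/sh-XIAP, 285 to 362 CPM with SFFV/sh-CTRL, 299 to 390 CPM with EF1α/sh-XIAP and 287 to 331 CPM with EF1α/sh-CTRL, the first overlapping EF1α/sh-XIAP only. With SFFV/sh-XIAP and SFFV/sh-CTRL, CALR was at 572 to 657 and 510 to 600 CPM, which overlap. MANF was at 128 to 174 and 106 to 142 CPM, which also overlap. HSP90B1 was at 540 to 604 and 428 to 533 CPM, which do not. Between these constructs 1.53% of the 6211 genes of at least 30 CPM did not overlap. The values of HSPA5 and HSP90B1 entered the fit that called them, so their lack of overlap adds no separate evidence. With log2 total UMIs as a covariate, CALR, HSP90B1 and HSPA5 passed again (0.17, 0.22 and 0.25) and MANF did not (0.28, adjusted p = 0.487). edgeR called 6 and DESeq2 4 of the 20 genes. HERPUD1, a member that answers to both arms, had a log2 difference of 0.05 in the comparison with the other constructs (95% interval −0.24 to 0.34; adjusted p = 0.984) and −0.20 against SFFV/sh-CTRL (−0.59 to 0.20; adjusted p = 0.942). The difference between the gene groups was not tested.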

How the data were processed

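NALM-6 RNA was sequenced by prime-seq, a bulk-adjusted SCRB-seq protocol. The authors deposited 1 table of counts, whole numbers of UMIs per Ensembl gene and sample, raw and without normalization, for 30667 identifiers and 31 samples, all of which were used. The submitters' processing notes name STAR 2.6.0a and the builds hg38 and mm10, and the annotation is not given in the sources used here. Symbols were taken from a table that matched 30548 identifiers. Groups follow the sample descriptions. Total UMIs of 312852 to 1153668 limit the precision of sparse genes, and the quoted counting intervals cover counting error only.

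Genes were kept where at least 1/3 of the libraries in a fit exceeded 1 CPM, and tested by limma-voom (limma 3.58.1, TMM factors from edgeR 4.0.16, R 4.3.3), two-sided, with Benjamini-Hochberg adjustment over all genes tested and calls at an adjusted p of at most 0.25, as in the study. The edgeR quasi-likelihood test and DESeq2 1.42.0 were alternatives. Days 10 and 13 (21 samples, day as a term), day 4 (10 samples) and all 31 samples (12 groups) were fitted apart. The study left out 5 samples that its text does not name, and none of the 31 deposited samples was left out here. If each of the 12 groups once had 3 samples, the replicate numbers absent from the groups of 2 equal these 5 in number. Whether they are the same samples is not stated. The procedure was tested on simulated data. Log2 CPM used a prior count of 2, and residuals for correlations used log2(CPM + 1).

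The members and lists were chosen with earlier results of these data known. Per comparison the text names the member with the smallest p in each direction. ATF4 is given by sample, and SLC1A5, further members at an unadjusted p under 0.05 and the pairs of correlated genes were named after their values were seen. Same-numbered samples of different groups did not deviate together (mean correlation −0.00054 over 149 pairs, against 0.00029 over 290 pairs of other numbers), so the replicate numbers were not used as pairs. Other alternatives were size factors of DESeq2, no filter, log2 total UMIs as a covariate, thinned counts, pseudogene counts added to their parents (16 pseudogenes), a replicate block, and each sample, or 2 shallow libraries together, left out.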

Additional observations from a re-analysis of the deposited data

How the results depend on the processing

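The count of members called stayed at 0 in 360 of 362 recomputed values, with edgeR, DESeq2, size factors of DESeq2, thinned counts, pseudogene counts added, a threshold of 0.05, all 31 samples in 1 fit and each sample or both shallow libraries left out, where the range was 0 to 0 for each comparison. With the replicate block it was also 0 in every comparison, and the block changed no other call, the numbers being shared without pairing the samples. The exceptions were day 10 against day 4 with no filter on low counts, with 2 members (SLC1A5, −0.217, adjusted p = 0.112, range over its alternatives 0.112 to 0.9996, and NUPR1), in a fit that called 8258 of 29756 genes, most of them rarely counted, and day 13 against day 10 with log2 total UMIs as a covariate, with 1 member (SLC1A5, 0.317, adjusted p = 0.0566, range 0.0566 to 0.99996). Of 724 named differences 2 changed sign, both PSPH in thinned counts, at −0.096 for strong minus moderate KD and −0.304 for strong KD at day 4. Of the 22 differences named by smallest p, none of which was called, 14 moved by over 1.5 times under an alternative (12) or with 1 sample left out (8). Of 363 medians and pathway means 358 moved by less than the replicate SD of 0.0628. With thinned counts the median became 0.0673 for strong KD at day 4, 0.143 for moderate KD at day 4 and −0.0509 for the change of the strong KD effect. With 1 sample left out the median ranged from −0.0531 (without SFFV/sh-CTRL day 10 replicate 1) to 0.0383 for the promoters and from 0.00264 (without EF1α/sh-CTRL day 4 replicate 2) to 0.115 for moderate KD at day 4. The cause of these shifts was not tested. Over all genes, strong KD called 14 with limma-voom, 49 with edgeR and 0 with DESeq2, strong KD against the other constructs 148, 199 and 54, and with log2 total UMIs as a covariate 21 and 91. Depth limits the 9 members under 20 CPM, for which only large changes could have been detected.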

Other observations

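Among the other sparse members, pooled UMIs at days 10 and 13 gave ratios of strong KD to its control, with exact 95% intervals for counting error only, of 0.886 (0.504 to 1.61) for ATF3, 1.07 (0.649 to 1.84) for CEBPB, 0.931 (0.616 to 1.44) for JDP2, 0.754 (0.407 to 1.45) for PPP1R15A and 1.06 (0.624 to 1.88) for SLC7A11. ATF3 and PPP1R15A are immediate stress reporters, and SLC7A11 imports cystine. For moderate KD the ratios were 1.29 (0.761 to 2.18), 0.832 (0.497 to 1.37), 0.796 (0.512 to 1.22), 0.749 (0.334 to 1.61) and 0.975 (0.554 to 1.70) in the same order. All of these intervals hold 1. NUPR1 had 3 UMIs with SFFV/sh-XIAP and 2 with SFFV/sh-CTRL, a ratio of 0.601 (0.0689 to 7.20).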
